A study of Caenorhabditis elegans with 9 samples.

Results

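C-type lectin (*clec*) genes were followed in late L2 *C. elegans* larvae of 3 genotypes. They were taken as every gene of the deposited expression table whose WormBase identifier bears a name made of *clec-* and a number. This rule found 240 of the 46875 genes listed, all annotated as protein coding, under 237 names, since *clec-15*, *clec-209* and *clec-249* each belong to a pair of genes. The genotypes were *sma-3(wk30)* mutants, *sma-9(ok1628)* mutants and wild-type N2 animals, with 3 biological replicates of each. Both mutations are described in the study as strong loss-of-function or null, and no other allele or agent was named for these worms. All animals were hatched from bleached embryos, kept at 20 °C and lysed whole, so that fewer cells of a type and less RNA per cell cannot be told apart here.

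C-type lectin-like domains are a protein fold that in many animal lectins binds sugars with the help of calcium. The family is greatly expanded in nematodes, where many members carry a predicted secretion signal, are made in the intestine and change their expression when the worm meets a pathogen. SMA-3 is a receptor-regulated Smad of the DBL-1 pathway, the worm's BMP pathway. SMA-9 is the Schnurri zinc finger protein that acts with the Smads of this pathway, which is known for its effects on body size and on immune defense.

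Expression was measured by RNA-seq as CPM, the reads of a gene scaled to a common normalized library size. The libraries held 58889275 to 82735807 reads on genes, so that 3 reads, taken as the least to be relied on, correspond to 0.0350 to 0.0503 CPM. The *sma-3* transcript was lower in *sma-3* mutants, at 12.6, 13.3 and 14.2 CPM, against 26.5, 21.4 and 22.4 CPM in wild-type. The *sma-9* transcript was higher in the libraries labelled *sma-9*, at 173, 213 and 219 CPM, against 87.6, 89.4 and 119.1 CPM in wild-type. A count over the whole gene does not show whether the mutant allele was present, so the label was not checked. Throughout, *sma-9* stands for that label. Over all 13105 tested genes, 8 of the 9 libraries lay nearest to one of their own genotype. The exception was wild-type replicate 3, whose nearest was *sma-9* replicate 2 (Euclidean distance 43.97 on the log2(CPM + 1) scale). The library names carry the numbers 14 to 16 for *sma-3*, 7, 8 and 10 for *sma-9* and 6, 7 and 9 for wild-type, so that library number and genotype cannot be told apart for *sma-3*. Deviations from the genotype means ran together across genes in *sma-9* replicate 1 and wild-type replicate 2, both numbered 7 (r = 0.611), and in *sma-9* replicate 2 and wild-type replicate 3, numbered 8 and 9 (r = 0.581).

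Few C-type lectin genes were abundant in these larvae. Only 96 of the 240 reached 1 CPM in at least 3 libraries and could be tested. Of the other 144, 14 had no read in any library. The remaining 130 had reads, but their mean over the 9 libraries was at most 0.819 CPM. *clec-3* and *clec-239* passed this limit through wild-type alone and *clec-140* through *sma-9* alone, so for these genes the filter itself favored a difference. The same caution holds for genes below 1 CPM in every library of a genotype. Among them are *clec-24* in wild-type and *clec-258* and both *clec-209* genes in *sma-3*. By chromosome, 6 of 36 members were tested on chromosome I, 17 of 48 on II, 4 of 14 on III, 28 of 53 on IV, 39 of 86 on V and 2 of 3 on X. Per kilobase of exon, *clec-63* had by far the highest mean level, at 759 ± 50.5 CPM per kilobase in *sma-3*, 449 ± 60.4 in *sma-9* and 876 ± 162 in wild-type (SD, n = 3). *clec-50* was next, at 292 ± 8.61 CPM per kilobase in *sma-3*, 174 ± 31.8 in *sma-9* and 239 ± 64.6 in wild-type. In wild-type these were followed by *clec-180* (120 ± 8.60), *clec-1* (119.03 ± 16.3), *clec-150* (99.7 ± 16.4) and *clec-265* (70.7 ± 10.9), and the levels of *clec-180* and *clec-1* did not differ beyond their spread.

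Summed over all 240 members, C-type lectin transcripts made up 2833 to 3056 CPM in *sma-3*, 2147 to 2506 CPM in *sma-9* and 2936 to 3531 CPM in wild-type. The *sma-9* libraries lay below all others, whereas the *sma-3* and wild-type ranges overlapped. *clec-63* alone gave 33.02% to 34.7% of the sum in *sma-3*, 23.4% to 26.3% in *sma-9* and 31.1% to 37.6% in wild-type. Without it, the mean sum was 1938 ± 51.99 CPM in *sma-3*, 1765 ± 107 CPM in *sma-9* and 2084 ± 102 CPM in wild-type (SD, n = 3). This sum is a description and was not tested.

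**Figure D1:**
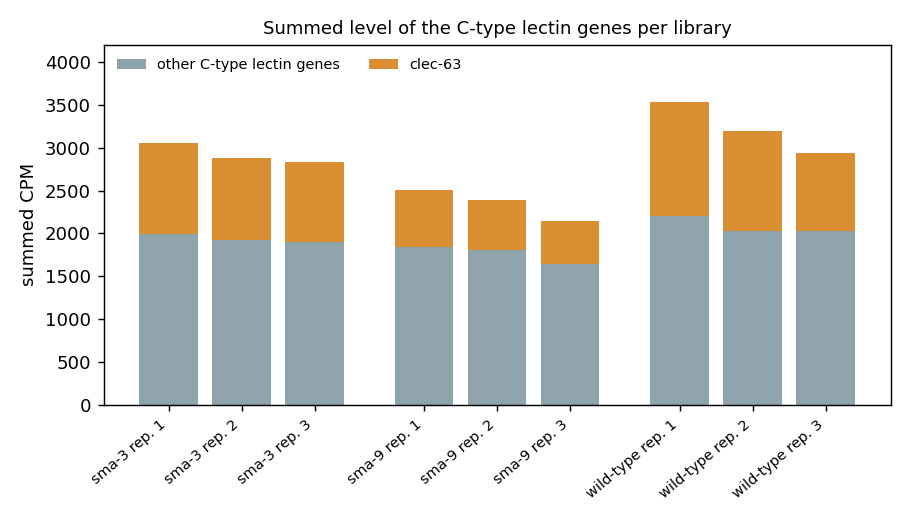
Summed CPM of the 240 C-type lectin genes (vertical axis) in each of the 9 libraries (horizontal axis), split into *clec-63* and all other members. The 3 *sma-9* libraries, at 2147 to 2506 CPM, lie below the *sma-3* and wild-type libraries, and *clec-63* makes up 23.4% to 37.6% of a bar.

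To ask which C-type lectin genes depend on the Smad, *sma-3* mutants were compared with wild-type. In *sma-3* mutants 35 of the 96 tested members (36.5%) changed, beside 21.5% of all tested genes. Of these, 19 were downregulated (19.8% of members, beside 12.2% of all genes) and 16 upregulated (16.7%, beside 9.36%). The median log2 fold change was −0.75 among the downregulated members and 0.91 among the upregulated ones, and over all tested members it was 0.01, beside −0.01 over all genes. A change of at least 2-fold, taken here and below on the log2(CPM + 1) scale, was reached by 15 members (15.6%, beside 4.02% of all genes), 9 down and 6 up. This scale leaves out weakly expressed members such as *clec-82*, whose mean CPM was 2.66 in *sma-3* and 0.903 in wild-type (log2 fold change 0.94). *sma-3* and wild-type libraries did not overlap for 47 members (49.0%, beside 41.4%), among them all 35 that changed. In these libraries 6 of 9 genes of the molting cycle and stage fell and 1 rose (median over the list −0.93), and their part in these counts was not tested. With every library scaled to the same total the split became 14 down and 18 up, a scaling that moved the median of all genes by 0.084. With *sma-3* and wild-type fitted alone, the *sma-3* calls of *clec-7*, *clec-37*, *clec-56*, *clec-67* and *clec-89* were lost. The number of downregulated members was 12 without *sma-3* replicate 2. The number upregulated was 9, 8 and 8 without *sma-3* replicates 1, 2 and 3 and 9 without wild-type replicate 2. Calls over all genes fell in these fits too, from 2823 to 1809, 1380 and 1352 without *sma-3* replicates 1, 2 and 3. They numbered 2115 without wild-type replicate 2.

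The comparison of *sma-9* with wild-type asks the same of the Schnurri partner. In *sma-9* libraries 32 of the 96 tested members (33.3%) changed, beside 6.88% of all tested genes. They comprised 20 downregulated members (20.8%, beside 3.85% of all genes) and 12 upregulated members (12.5%, beside 3.02%). Their median log2 fold change was −0.92 on the lower side and 1.10 on the higher side, and over all tested members −0.10, beside 0.00 over all genes. At least 2-fold changes on the log2(CPM + 1) scale were seen for 17 members (17.7%, beside 1.56% of all genes), 8 down and 9 up. Left out by this scale was, for example, *clec-24*, at a mean of 0.961 CPM in *sma-9* and 0.221 CPM in wild-type (0.69). The *sma-9* and wild-type libraries did not overlap for 46 members (47.9%, beside 22.2%), including all 32 that changed. In the same libraries 5 of 9 intestinal marker genes fell (median over the list −0.47), and their part in these counts was not tested. Scaling to equal totals gave 14 down and 13 up and moved the median of all genes by 0.105. With *sma-9* and wild-type fitted alone, calls over all genes went from 901 to 445. Among members, that fit ended the *sma-9* calls of *clec-1*, *clec-17*, *clec-56*, *clec-57*, *clec-62*, *clec-72*, *clec-160*, *clec-185*, *clec-187*, *clec-218* and *clec-239*. The number of downregulated members was 13 without *sma-9* replicate 3 and 12 without wild-type replicate 1. The number upregulated was 7 without *sma-9* replicate 3 and 8 without *sma-9* replicate 2. Without wild-type replicate 3 there were 24 down and 11 up. Over all genes, 901 calls became 487 without *sma-9* replicate 3 and 555 without *sma-9* replicate 2. They became 688 without wild-type replicate 1 and 1569 without wild-type replicate 3.

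The mutants were also compared directly, since a gene past the threshold in one mutant and not in the other need not differ between them. Between *sma-3* and *sma-9*, 33 members (34.4%, beside 17.7% of all genes) changed. Of these, 16 were lower in *sma-3* (16.7%, beside 9.10%) and 17 were higher (17.7%, beside 8.56%). At least 2-fold differences were seen for 12 (12.5%, beside 3.87%), and the libraries of the mutants did not overlap for 55 (57.3%, beside 42.4%). Members changed against wild-type and, in the same direction, against the other mutant are called set apart below. By this rule 8 were set apart as lower in *sma-3* (8.33%, beside 5.23% of all genes), 7 as higher in *sma-3* (7.29%, beside 4.74%), 8 as lower in *sma-9* (8.33%, beside 1.42%) and 6 as higher in *sma-9* (6.25%, beside 1.62%), with *clec-51* counted in both mutants. Without *sma-3* replicates 1, 2 and 3 the number set apart as higher in *sma-3* was 3, 2 and 1, and it was 3 without *sma-9* replicate 2, *sma-9* replicate 3 or wild-type replicate 2. The number set apart as lower in *sma-3* was 5 without any 1 of the *sma-3* replicates, and as higher in *sma-9* 3 without *sma-3* replicate 2 or 3. Calls between the mutants over all genes went from 2315 to 1472, 970 and 1005 without *sma-3* replicates 1, 2 and 3. They numbered 1468 and 1330 without *sma-9* replicates 2 and 3, and 2338 without wild-type replicate 2.

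**Figure D2:**
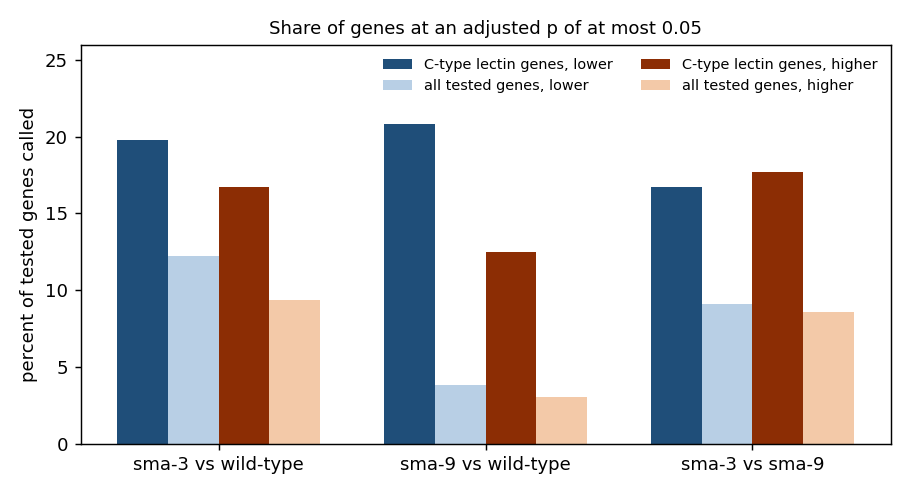
Percent of tested genes called, that is with an adjusted p no higher than 0.05 (vertical axis), in the 3 comparisons (horizontal axis), lower and higher separately, for the 96 tested C-type lectin genes (dark) and all 13105 tested genes (pale). In *sma-9* against wild-type 20.8% of members were lower, beside 3.85% of all genes.

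Across the 3 comparisons 53 of the 96 tested members (55.2%, beside 30% of all genes) changed in at least 1, and 43 in none. Those 43 ran from −0.66 to 0.66 in log2 fold change in *sma-3* and from −0.91 to 0.56 in *sma-9*, and include *clec-42*, which with *clec-41* is known from the response to *Bacillus thuringiensis*, and *clec-85*, known as a target of the p38 kinase PMK-1. *clec-42* stood at 27.3 ± 9.60 CPM in *sma-3*, 29.9 ± 6.46 CPM in *sma-9* and 20.1 ± 5.96 CPM in wild-type (SD, n = 3). *clec-150*, among the most abundant members, stood at 108 ± 1.95 CPM in *sma-3*, 102 ± 9.10 CPM in *sma-9* and 118.8 ± 19.6 CPM in wild-type. The comparisons of *sma-3* and *sma-9* with wild-type share the wild-type libraries, so that values of both are given side by side below and their likeness is not a result.

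**Figure D3:**
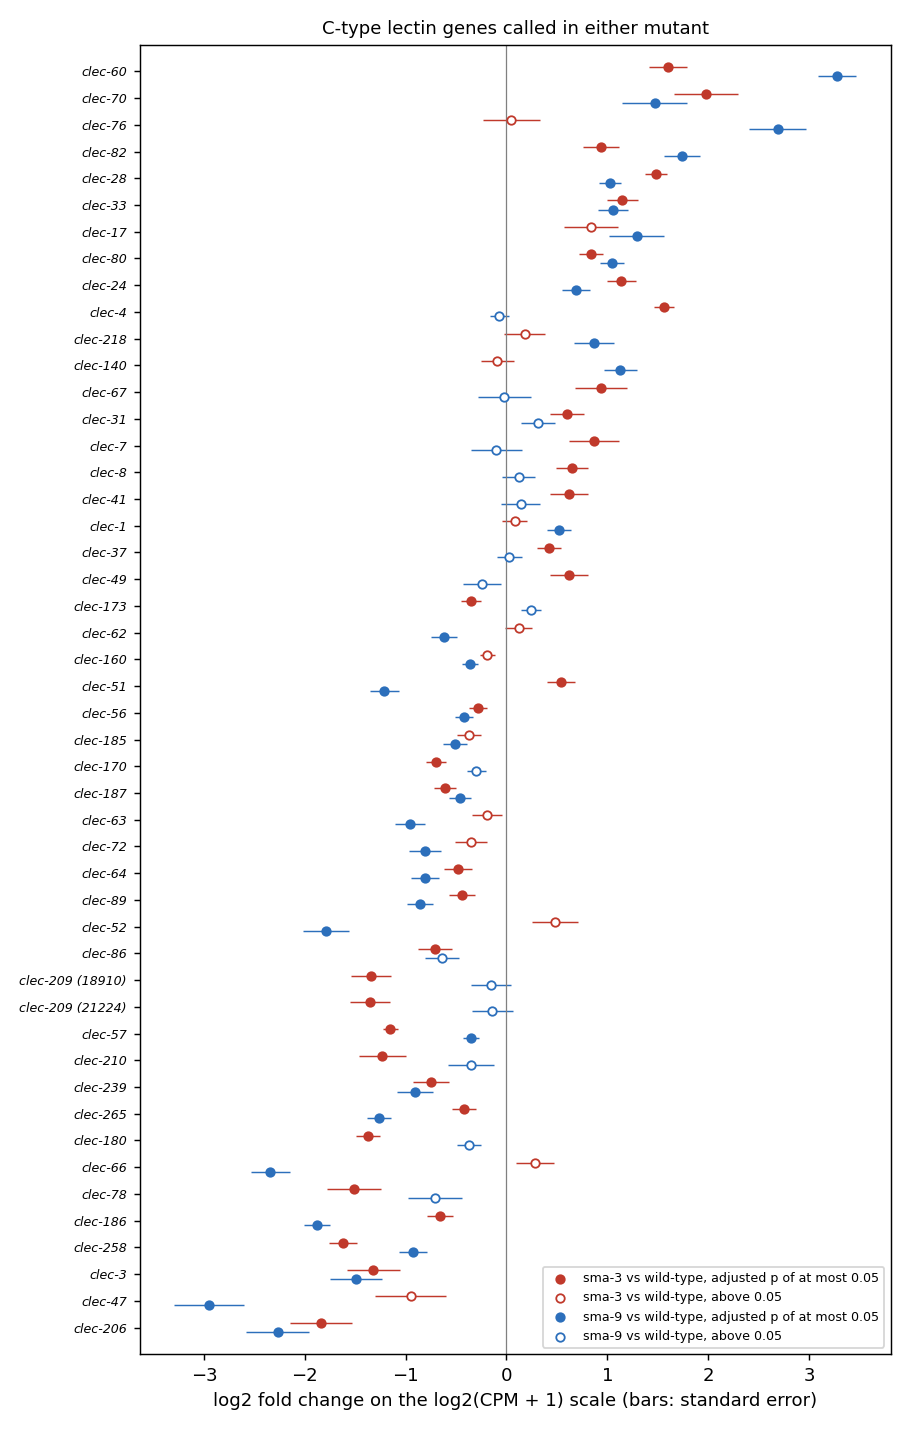
Log2 fold change on the log2(CPM + 1) scale (horizontal axis; bars are standard errors) of the C-type lectin genes changed against wild-type in either mutant (one gene per line), for *sma-3* (red) and *sma-9* (blue) against wild-type. Filled points passed an adjusted p of 0.05; *clec-60* lies at the top, at 1.60 in *sma-3* and 3.28 in *sma-9*, and *clec-206* at the bottom, at −1.84 and −2.27.

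Of the members higher than wild-type in both mutants, *clec-60* rose most in *sma-9* and *clec-70* in *sma-3*. *clec-60* is a lectin gene known to be induced when worms are infected with *Staphylococcus aureus*. It was measured at 5.64, 5.37 and 5.93 CPM in *sma-3*, 24.9, 16.5 and 20.0 CPM in *sma-9*, against 1.71, 0.663 and 1.33 CPM in wild-type. No genotype overlapped another. The log2 fold change was 1.60 (SE 0.19, adjusted p = 0.000976) in *sma-3* and 3.28 (SE 0.19, adjusted p = 1.85e-05) in *sma-9*, and the difference of *sma-3* from *sma-9* was −1.67 (adjusted p = 0.000617). *clec-60* lies on chromosome II (10480043 to 10481874 in WBcel235, minus strand), beside *clec-61*, which did not pass the test (0.15 in *sma-3* and −0.10 in *sma-9*).

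*clec-70* reached 4.95, 3.07 and 7.46 CPM in *sma-3* and 3.22, 2.67 and 3.54 CPM in *sma-9*, against 0.150, 0.206 and 1.38 CPM in wild-type. Its log2 fold change was 1.98 (SE 0.32, adjusted p = 0.00315) in *sma-3* and 1.47 (SE 0.32, adjusted p = 0.0226) in *sma-9*, and both mutants lay wholly above wild-type. *clec-82* stood at 3.51, 2.499 and 1.96 CPM in *sma-3*, 5.18, 5.49 and 5.14 CPM in *sma-9*, against 0.538, 0.943 and 1.23 CPM in wild-type, and no genotype overlapped another. Its log2 fold change was 0.94 (adjusted p = 0.00646) in *sma-3* and 1.74 (adjusted p = 0.000484) in *sma-9*. *clec-82* overlaps *Y54G2A.7* on the same strand, so reads of the pair may not be separable. The nearby *clec-80* rose less steeply, by 0.84 in *sma-3* and 1.05 in *sma-9*, to 37.9, 36.1 and 37.3 CPM and 46.3, 36.7 and 47.2 CPM, against 21.9, 17.1 and 22.5 CPM in wild-type. The *sma-9* call of *clec-70* was lost without *sma-9* replicate 2 or 3 or wild-type replicate 1 or 2 (adjusted p up to 0.0997), and the lower level of *clec-82* in *sma-3* than in *sma-9* without *sma-3* replicate 2 or 3 (up to 0.0616).

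*clec-28*, *clec-33* and *clec-24* were almost silent in wild-type and higher in both mutants. *clec-28* was measured at 4.30, 3.96 and 5.20 CPM in *sma-3* and 2.75, 3.26 and 3.03 CPM in *sma-9*, against 0.927, 0.913 and 1.06 CPM in wild-type. Its log2 fold change was 1.48 (SE 0.11, adjusted p = 9.34e-05) in *sma-3* and 1.03 (SE 0.11, adjusted p = 0.000738) in *sma-9*, and the *sma-3* libraries lay above the *sma-9* ones (0.45, adjusted p = 0.0241). *clec-33* rose by 1.15 in *sma-3* and 1.06 in *sma-9*, and *clec-24* by 1.14 and 0.69. *clec-24* was at 1.23, 2.05 and 1.84 CPM in *sma-3* and 0.885, 1.14 and 0.862 CPM in *sma-9*, against 0.254, 0.324 and 0.0856 CPM in wild-type. The *sma-9* call of *clec-24* was lost without *sma-9* replicate 2 or 3 (adjusted p up to 0.0758), and the difference of *clec-28* between the mutants without *sma-3* replicate 1 or 3 or *sma-9* replicate 1 or 3 (up to 0.0977).

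Of the members lower than wild-type in both mutants, *clec-206* fell most in each on the log2(CPM + 1) scale. On that scale *clec-186* followed in *sma-9* and *clec-258* in *sma-3*. The scale makes falls of weakly expressed genes such as *clec-3* and *clec-258* come out too small, and by the ratio of mean CPM the order differs. *clec-206* was at 3.89, 3.99 and 4.08 CPM in *sma-3* and 1.89, 3.72 and 2.68 CPM in *sma-9*, against 10.5, 15.1 and 29.5 CPM in wild-type. Both mutants lay below wild-type, whose own libraries spread widely, and the mutants did not part from each other past the threshold (0.44, adjusted p = 0.371). The log2 fold change was −1.84 (SE 0.31, adjusted p = 0.00414) in *sma-3* and −2.27 (SE 0.31, adjusted p = 0.00274) in *sma-9*. *clec-186* was at 28.3, 30.4 and 29.9 CPM in *sma-3* and 10.95, 15.2 and 10.6 CPM in *sma-9*, against 46.6, 52.1 and 43.4 CPM in wild-type. The 3 genotypes formed separate steps, with log2 fold changes of −0.66 (SE 0.13, adjusted p = 0.00778) in *sma-3*, −1.88 (SE 0.13, adjusted p = 4.32e-05) in *sma-9* and 1.22 (adjusted p = 0.000406) between *sma-3* and *sma-9*. Its neighbor *clec-187* (chromosome IV) fell by 0.61 in *sma-3* and 0.46 in *sma-9*. The *sma-9* call of *clec-187* was lost without *sma-3* replicate 2 or 3, *sma-9* replicate 2 or 3 or wild-type replicate 1 or 2 (adjusted p up to 0.126).

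*clec-265*, on the X chromosome, was at 49.9, 53.9 and 58.2 CPM in *sma-3* and 29.3, 33.2 and 27.1 CPM in *sma-9*, against 86.03, 66.2 and 66.7 CPM in wild-type. Again the genotypes did not overlap, and the log2 fold change was −0.42 (adjusted p = 0.0344) in *sma-3* and −1.26 (adjusted p = 0.000339) in *sma-9*. *clec-57* and *clec-258* fell further in *sma-3*. *clec-57* was at 18.1, 17.5 and 15.7 CPM in *sma-3* and 29.2, 30.6 and 31.7 CPM in *sma-9*, against 40.2, 39.2 and 37.8 CPM in wild-type, which are again separate steps. Its log2 fold change was −1.15 (SE 0.08, adjusted p = 3.89e-05) in *sma-3*, −0.35 (adjusted p = 0.0259) in *sma-9* and −0.80 (adjusted p = 0.000237) between the mutants. *clec-258* was at 0.696, 0.403 and 0.656 CPM in *sma-3* and 1.71, 1.48 and 1.43 CPM in *sma-9*, against 3.89, 4.70 and 3.10 CPM in wild-type, with log2 fold changes of −1.62 and −0.93. The *sma-3* call of *clec-265* was lost without any 1 of the *sma-3* replicates or wild-type replicate 1 (adjusted p up to 0.115), the *sma-9* call of *clec-57* without *sma-3* replicate 2, any 1 of the *sma-9* replicates or wild-type replicate 1 or 2 (up to 0.0815), and the difference of *clec-258* between the mutants without *sma-3* replicate 2 (0.0527).

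The remaining members lower in both were *clec-3*, *clec-239*, *clec-89*, *clec-64* and *clec-56*, with log2 fold changes of −1.32, −0.75, −0.44, −0.48 and −0.28 in *sma-3* and −1.49, −0.91, −0.86, −0.81 and −0.42 in *sma-9*. *clec-3* was at 0.443, 0.436 and 0.656 CPM in *sma-3* and 0.236, 0.441 and 0.350 CPM in *sma-9*, against 2.02, 1.86 and 5.18 CPM in wild-type. It overlaps *C41H7.2* on the opposite strand and *clec-89* overlaps the large muscle gene *unc-89* on the opposite strand, so that their reads are uncertain. Leaving out 1 library ended the calls of *clec-239* in both mutants (adjusted p up to 0.0667) and those of *clec-89* (up to 0.132), *clec-64* (up to 0.130) and *clec-56* (up to 0.167) in *sma-3*. For *clec-239* these were *sma-3* replicates 1 and 2, *sma-9* replicates 2 and 3 and wild-type replicates 1 and 2. For *clec-64* they were *sma-3* replicates 2 and 3 and wild-type replicate 1, for *clec-89* all but *sma-9* replicate 1 and wild-type replicate 1, and for *clec-56* all but *sma-9* replicates 1 and 2. The *sma-9* call of *clec-56* was lost without *sma-9* replicate 3 or wild-type replicate 1 (up to 0.0827), and also with *sma-9* and wild-type fitted alone, without a term for library number (adjusted p = 0.0814) or with one (adjusted p = 0.0501).

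**Figure D4:**
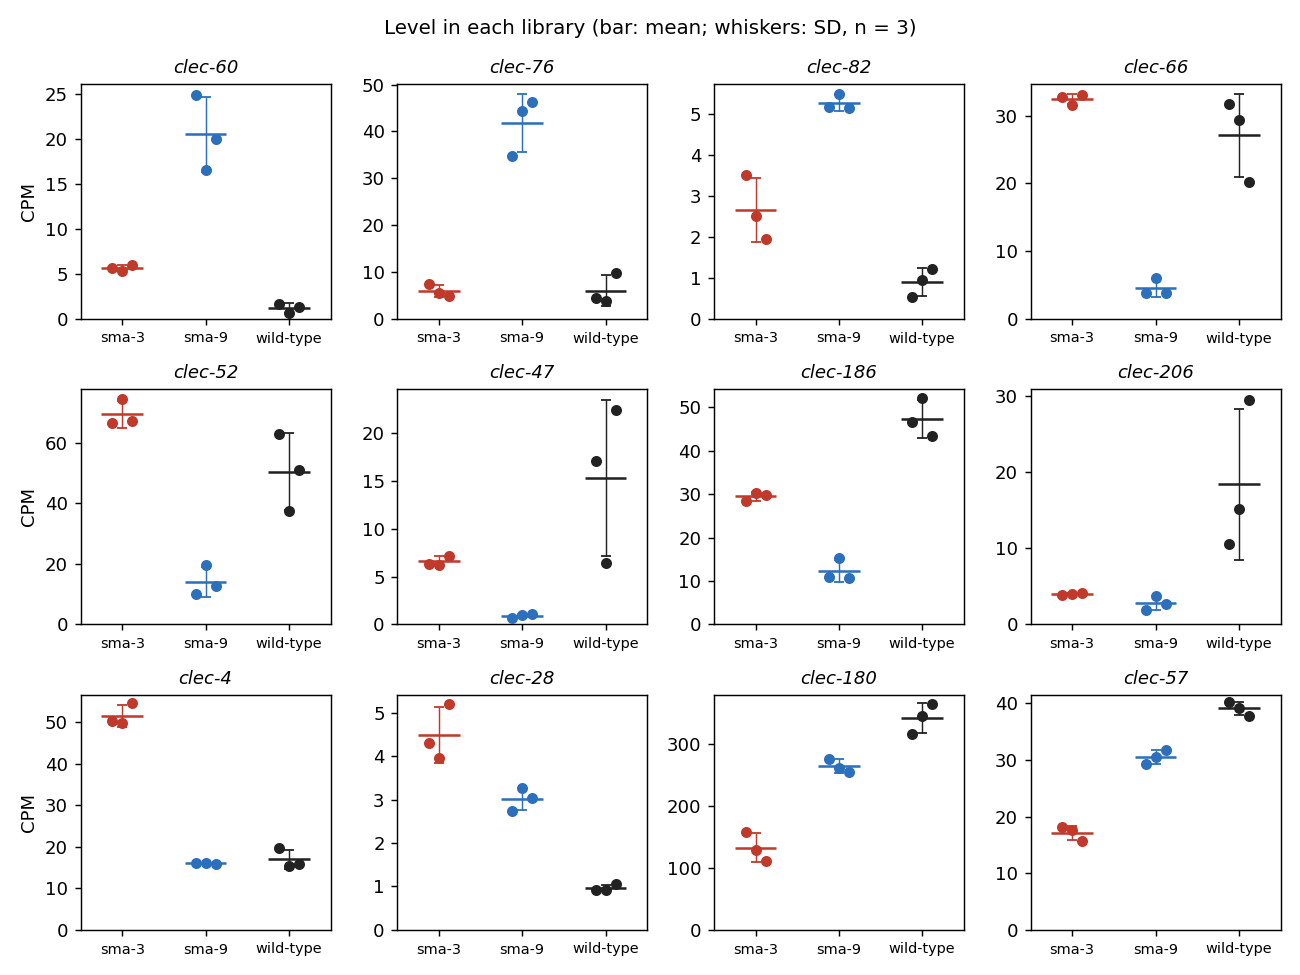
CPM (vertical axis, from 0) of 12 C-type lectin genes in each library of *sma-3*, *sma-9* and wild-type; bars are means and whiskers SDs of 3 libraries. In *sma-9*, *clec-60* and *clec-76* lie above every other library and *clec-66*, *clec-52* and *clec-47* below, whereas *clec-4* lies highest in *sma-3*.

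Among members that changed in *sma-3* and did not pass the test in *sma-9*, *clec-4* had the lowest adjusted p. It stood at 50.2, 49.8 and 54.6 CPM in *sma-3*, 16.0, 16.1 and 16.0 CPM in *sma-9*, against 19.7, 15.3 and 15.9 CPM in wild-type. The *sma-3* mean was 3.04-fold that of wild-type, and the *sma-9* and wild-type libraries overlapped. The log2 fold change was 1.56 (SE 0.10, adjusted p = 2.45e-05) against wild-type and 1.62 (SE 0.10, adjusted p = 1.11e-05) against *sma-9*. The adjacent *clec-8* rose by 0.65 in *sma-3*, to 6.91, 8.86 and 10.4 CPM, against 6.19, 4.12 and 5.24 CPM in wild-type. Its calls were lost without *sma-3* replicate 2 or 3 or wild-type replicate 2 (against wild-type, adjusted p up to 0.0832) and without *sma-3* replicate 2 or 3 or any 1 of the *sma-9* replicates (against *sma-9*, up to 0.173).

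*clec-67*, known as a target of the p38 kinase PMK-1, was at 36.8, 44.2 and 49.2 CPM in *sma-3* and 23.2, 21.3 and 20.8 CPM in *sma-9*, against 36.5, 19.2 and 15.0 CPM in wild-type. Wild-type replicate 1 came close to the *sma-3* libraries, and the log2 fold change was 0.94 (SE 0.26, adjusted p = 0.0321). *clec-49*, required in worms for full resistance to *Serratia marcescens*, was at 23.8, 24.6 and 23.3 CPM in *sma-3* and 15.3, 14.1 and 9.59 CPM in *sma-9*, against 18.4, 16.5 and 11.6 CPM in wild-type (0.62, adjusted p = 0.0438). *clec-7*, *clec-41*, *clec-31* and *clec-37* rose in *sma-3* by 0.87, 0.62, 0.60 and 0.42. These 6 calls were lost without any 1 of the *sma-3* replicates or without wild-type replicate 2 (adjusted p up to 0.112 for *clec-67*, 0.128 for *clec-49*, 0.121 for *clec-7*, 0.136 for *clec-41*, 0.110 for *clec-31* and 0.116 for *clec-37*). Wild-type replicate 3 had the same effect for *clec-67*, *clec-49*, *clec-41* and *clec-31*, wild-type replicate 1 for *clec-7* and *clec-37*, *sma-9* replicate 2 for *clec-7*, *clec-41* and *clec-49*, and *sma-9* replicate 3 for *clec-7* and *clec-67*. Against *sma-9*, the differences of *clec-67* and *clec-7* were lost without any 1 of the mutant libraries (up to 0.123 and 0.0934) and that of *clec-49* without *sma-3* replicate 2 or 3 (up to 0.0603).

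On the lower side in *sma-3*, *clec-180* was the most abundant member to fall. It was at 158, 129 and 112 CPM in *sma-3* and 276, 261 and 254 CPM in *sma-9*, against 316, 345 and 365 CPM in wild-type, and the genotypes did not overlap. The log2 fold change was −1.37 (SE 0.12, adjusted p = 0.000212) in *sma-3*, −0.37 (adjusted p = 0.102) in *sma-9* and −1.0 (adjusted p = 0.000833) between the mutants. Both genes named *clec-209* lay at 0.316 to 0.377 CPM in *sma-3* and 1.26 to 3.14 CPM in *sma-9*, against 1.96 to 3.20 CPM in wild-type, with log2 fold changes of −1.34 and −1.35 in *sma-3*. They are of equal exon length and had nearly equal values in each library, so that they may share reads and are not independent. *clec-210* fell by 1.23 in *sma-3*, to 1.64, 1.06 and 1.60 CPM, against 3.51, 3.70 and 7.56 CPM in wild-type.

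*clec-170* fell in *sma-3* by 0.70 and *clec-173* by 0.35, and both were also lower than in *sma-9* (−0.39, adjusted p = 0.0226, and −0.59, adjusted p = 0.00548). *clec-78* was at 23.9, 17.7 and 16.6 CPM in *sma-3* and 48.2, 32.9 and 24.9 CPM in *sma-9*, against 42.7, 54.2 and 77.7 CPM in wild-type (−1.51 in *sma-3*, adjusted p = 0.00491). It spans 10850 bases of exon and overlaps several other genes, and *clec-86*, which fell by 0.71, overlaps *alh-10*, so that both are uncertain, as is *clec-210*, which overlaps *srt-56*. The *sma-3* call of *clec-86* was lost without *sma-3* replicate 2 or 3 or wild-type replicate 1 (adjusted p up to 0.0652) and that of *clec-173* without any 1 of the *sma-3* or wild-type replicates (up to 0.135). The difference of *clec-170* between the mutants was lost without *sma-3* replicate 1 or 3 or *sma-9* replicate 2 or 3 (up to 0.0949), and that of *clec-210* without any 1 of the *sma-3* replicates or *sma-9* replicate 2 or 3 (up to 0.11997).

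In *sma-9*, *clec-47* fell most. It was at 6.32, 6.26 and 7.20 CPM in *sma-3* and 0.679, 0.936 and 1.10 CPM in *sma-9*, against 17.1, 6.41 and 22.4 CPM in wild-type. The *sma-9* libraries lay below all others, while wild-type replicate 2 lay within the *sma-3* range. The log2 fold change was −2.95 (SE 0.35, adjusted p = 0.00119) against wild-type, and *sma-3* was above *sma-9* by 2.00 (SE 0.35, adjusted p = 0.00519). In *sma-3* it was −0.95 (adjusted p = 0.0816). The size of the *sma-9* change ran from −3.44 without wild-type replicate 2 to −2.61 without wild-type replicate 3.

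*clec-66* was at 32.8, 31.6 and 32.98 CPM in *sma-3* and 3.75, 6.08 and 3.81 CPM in *sma-9*, against 31.7, 29.4 and 20.2 CPM in wild-type. Its log2 fold change was −2.34 (SE 0.19, adjusted p = 0.000136) in *sma-9*, and *sma-3* was above *sma-9* by 2.62 (SE 0.19, adjusted p = 3.96e-05). *clec-66* closes a row of 5 members on chromosome II (12893062 to 12906644 in WBcel235), *clec-62* to *clec-66*, all of which were tested. In *sma-9* the log2 fold change was −0.62 for *clec-62*, −0.96 for *clec-63*, −0.81 for *clec-64* and −0.38 for *clec-65*, the last not passing the test (adjusted p = 0.112). In *sma-3* the 5 genes lay at 0.12, −0.19, −0.48, −0.03 and 0.28, of which *clec-64* passed. *clec-63*, the most abundant member, was at 1059, 960 and 935 CPM in *sma-3* and 658, 585 and 502 CPM in *sma-9*, against 1328, 1167 and 913 CPM in wild-type. The call of *clec-62* was lost without *sma-9* replicate 2 or 3 or wild-type replicate 1 or 2 (adjusted p up to 0.0944).

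*clec-51* and *clec-52* are neighbors on chromosome IV (8161953 to 8168760, both on the minus strand) that parted the mutants. *clec-51* was at 51.2, 48.4 and 51.6 CPM in *sma-3* and 12.7, 16.0 and 14.4 CPM in *sma-9*, against 40.9, 35.9 and 27.6 CPM in wild-type. It was the member called in opposite directions, with log2 fold changes of 0.54 (SE 0.14, adjusted p = 0.0228) in *sma-3* and −1.21 (SE 0.14, adjusted p = 0.000948) in *sma-9*, and of 1.75 (adjusted p = 6.14e-05) between them. *clec-52* was at 66.4, 74.4 and 67.1 CPM in *sma-3* and 9.99, 19.4 and 12.7 CPM in *sma-9*, against 62.7, 37.4 and 51.04 CPM in wild-type. It fell in *sma-9* (−1.79, SE 0.23, adjusted p = 0.00206), while its 0.48 in *sma-3* did not pass (adjusted p = 0.1704). *clec-51* overlaps *faah-1* on the opposite strand, and its call in *sma-3* was lost without any 1 of the *sma-3* replicates (adjusted p up to 0.0797).

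The other members lower in *sma-9* were *clec-72*, *clec-185* and *clec-160*, with log2 fold changes of −0.81, −0.51 and −0.36. None of these differed between the mutants past the threshold (adjusted p = 0.0756, 0.484 and 0.160). Their calls rested on single libraries. That of *clec-72* was lost without *sma-9* replicate 3 or wild-type replicate 1 (adjusted p up to 0.0723), that of *clec-160* without *sma-3* replicate 2, *sma-9* replicate 2 or wild-type replicate 1 or 2 (up to 0.0804) and with *sma-9* and wild-type fitted alone, without a term for library number (0.0942) or with one (0.0711), and that of *clec-185* without *sma-3* replicate 3 or any 1 of the *sma-9* or wild-type replicates (up to 0.0970).

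*clec-76* had the largest rise in *sma-9* among members that did not pass the test in *sma-3*. It was at 7.34, 5.55 and 4.81 CPM in *sma-3* and 34.8, 44.3 and 46.3 CPM in *sma-9*, against 4.49, 3.81 and 9.77 CPM in wild-type. The *sma-9* libraries lay more than 3-fold above every other, and *sma-3* overlapped wild-type. The log2 fold change was 2.69 (SE 0.28, adjusted p = 0.000553) against wild-type, and the difference of *sma-3* from *sma-9* was −2.64 (SE 0.28, adjusted p = 0.000394). *clec-140* rose by 1.13, to 1.77, 2.31 and 2.37 CPM in *sma-9*, against 0.314, 0.265 and 0.770 CPM in wild-type, but it overlaps *T05A7.3* and *hmg-11*. *clec-17*, *clec-218* and *clec-1* rose by 1.29, 0.87 and 0.52. *clec-1* was at 102, 93.4 and 94.0 CPM in *sma-3* and 153, 122.3 and 118.8 CPM in *sma-9*, against 90.1, 105 and 79.9 CPM in wild-type. The *sma-9* call of *clec-17* was lost without *sma-9* replicate 2 or 3 or wild-type replicate 1 or 2 (adjusted p up to 0.0893), that of *clec-218* also without *sma-3* replicate 3 (up to 0.121), and that of *clec-1* without any 1 library but wild-type replicate 2 (up to 0.0899). Between the mutants, *clec-218* lost its call without any 1 of the *sma-3* replicates, *sma-9* replicate 2 or 3 or wild-type replicate 1 (up to 0.174) and *clec-1* without any 1 mutant library or wild-type replicate 1 (up to 0.129).

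A further 5 members differed between the mutants without passing the test against wild-type in either. *clec-169* was at 6.94, 6.71 and 9.12 CPM in *sma-3*, against 24.8, 13.9 and 20.2 CPM in *sma-9*, and wild-type lay between them at 12.9, 12.2 and 10.7 CPM. Its difference was −1.24 (SE 0.19, adjusted p = 0.00311). *clec-227* was also lower in *sma-3* than in *sma-9* (−0.58), while *clec-48* (0.96), *clec-50* (0.76) and *clec-83* (0.69) were higher. The calls of *clec-227* and *clec-50* were lost without any 1 of the *sma-3* replicates or *sma-9* replicate 2 or 3 (adjusted p up to 0.0813 and 0.101), and that of *clec-83* without any 1 of the *sma-3* replicates or *sma-9* replicate 3 (up to 0.0657).

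The position of members along the chromosomes was described by joining those less than 10000 bases apart into arrays. There were 47 arrays, which held 155 of the 240 members, and 17 of them had at least 2 tested members. The largest, on chromosome V, held 13 members, of which 10 were tested. *clec-24*, *clec-28* and *clec-33*, the last tested genes of this array, rose in both mutants, while *clec-31* and *clec-37* passed in *sma-3* and the other 5 tested members in neither. In the array of 11 members on chromosome IV, *clec-70* rose in both mutants, *clec-67* passed in *sma-3*, *clec-76* rose and *clec-72* fell in *sma-9*, and *clec-71* passed in neither. Neighbors thus did not share one direction in every array. The 3 nearest tested genes on each side of a member were taken. Those among them outside the family were counted where they changed in the member's direction, so that members inside arrays gave few. In *sma-3* these were 13 of 88 beside the downregulated members (14.8%, beside 12.2% of all genes) and 5 of 43 beside the upregulated ones (11.6%, beside 9.36%). In *sma-9* they were 10 of 75 beside the downregulated members (13.3%, beside 3.85%) and 2 of 40 beside the upregulated ones (5%, beside 3.02%). At least 2-fold changes were found for 0 of the 88 (1.15% of all genes) and 1 of the 43 (2.87%) in *sma-3* and for 4 of the 75 (0.588%) and 0 of the 40 (0.969%) in *sma-9*. Most of these 4 lie beside a single member, *clec-239*. They are WBGene00014954 (−2.28), WBGene00014955 (−2.83) and *T05E12.6* (−1.48), the last 128473 bases away, and *acd-1* (−1.39) beside *clec-89*. No limit was set on distance.

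**Figure D5:**
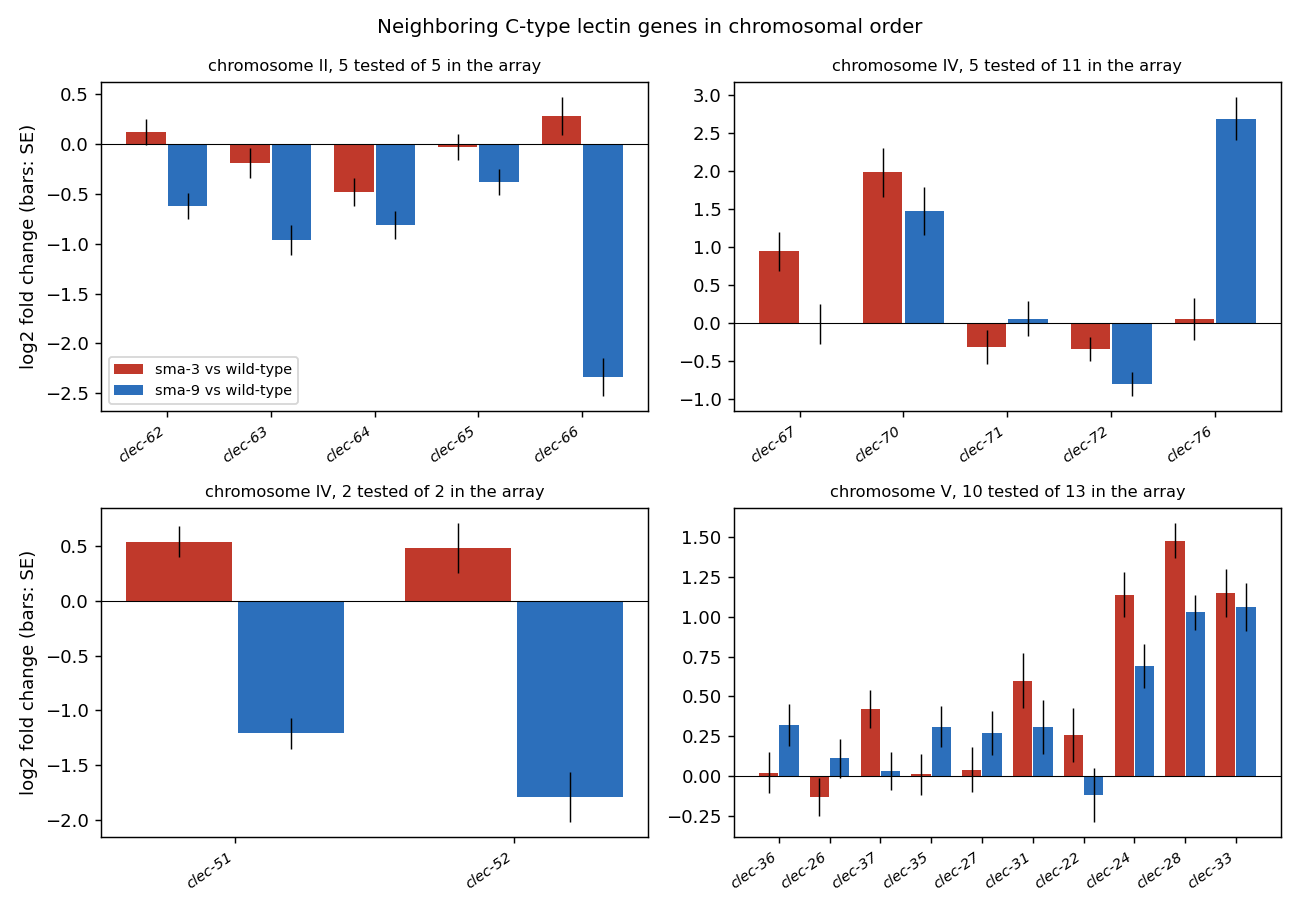
Log2 fold change on the log2(CPM + 1) scale (vertical axis; whiskers are standard errors) of the tested genes of 4 arrays of neighboring C-type lectin genes in chromosomal order (horizontal axis), for *sma-3* (red) and *sma-9* (blue) against wild-type. In the chromosome II array 4 of 5 genes passed the test as lower in *sma-9*, down to −2.34 for *clec-66*, and *clec-65* did not (−0.38), and *clec-51* and *clec-52* lie above 0 in *sma-3* and below 0 in *sma-9*.

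Among members too low to be tested, 2 had no read in any library of a genotype and at least 10 reads in each library of another. *clec-2* had 8, 0 and 2 reads in *sma-3* and 0 reads in each *sma-9* library, against 17, 12 and 26 reads in wild-type. *clec-151* had 11, 10 and 12 reads in *sma-3* and 6, 0 and 4 reads in *sma-9*, against 0 reads in each wild-type library. At these depths a count of 0 allows up to 3 reads, counting error only. No test was made on them.

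Other secreted defense genes were examined from lists, on which every measured member was counted. Beside these counts, 12.2% of all tested genes fell and 9.36% rose in *sma-3*. In *sma-9*, 3.85% of all tested genes fell and 3.02% rose. Of 12 tested lysozyme genes, which encode enzymes that cut bacterial cell walls, 0 fell and 5 rose in *sma-3*, and 3 fell and 1 rose in *sma-9*. *lys-7* rose in both, to 161 ± 51.8 CPM in *sma-3* and 113 ± 11.2 CPM in *sma-9*, against 45.7 ± 5.07 CPM in wild-type (SD, n = 3; log2 fold changes 1.75 and 1.29). *lys-4* fell in *sma-9*, to 83.7 ± 6.65 CPM, against 307 ± 45.1 CPM in wild-type (−1.85, adjusted p = 3.16e-05). Of 33 saposin-like and antimicrobial peptide genes 4 fell and 6 rose in *sma-3*, where *spp-9* rose by 3.47. In *sma-9*, 0 of these 33 passed with limma, 6 had an unadjusted p under 0.05 and 1 passed with the read-weighted voom fit. Of 16 further infection response genes 2 fell and 6 rose in *sma-3*, and 3 fell and 2 rose in *sma-9*. Of 20 immune regulators 0 fell and 3 rose in *sma-3*, and 2 fell and 1 rose in *sma-9*. Of 13 DBL-1 pathway genes 3 fell and 2 rose in *sma-3*, and 0 fell and 3 rose in *sma-9*. These counts include the mutated genes themselves. The *sma-3* gene was among those that fell in *sma-3* (−0.76), and the *sma-9* gene among those that rose in *sma-9* (1.03).

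Marker genes of tissues and stages were counted in the same way. Over all tested genes, 21.5% were called in *sma-3* and 6.88% in *sma-9*. In *sma-3*, 1 or 2 called genes in a list of 5 to 9 therefore lie near the share of all genes. Of 9 tested intestinal markers, 5 were lower in *sma-9*, where their summed level was 4689 to 5935 CPM, against 6646 to 8043 CPM in wild-type, and they included *elt-2*, the intestinal GATA factor (−0.36), and *ges-1* (−0.51). In *sma-3* the same list summed to 8638 to 8992 CPM, and 2 of the 9, *mtl-2* and *cpr-1*, rose. Of 9 genes tied to the molting cycle and stage, 6 were lower and 1 higher in *sma-3* (median −0.93), where they summed to 2166 to 3028 CPM, against 4660 to 6651 CPM in wild-type, and 2 were lower in *sma-9* (3959 to 4417 CPM). No summed list was at 0 in any library. In epidermis (8 tested) 1 gene fell and 1 rose in *sma-3* and 0 changed in *sma-9*, and in pharynx (6 tested) 0 changed in *sma-3* and 1 fell in *sma-9*. In germline (7 tested) 1 rose in *sma-3* and 0 changed in *sma-9*, and in coelomocyte and excretory cells (5 tested) 1 rose in *sma-3* and 1 fell in *sma-9*. In body wall muscle (6 tested) and neurons (7 tested) 0 changed in either mutant. Of these lists without a call in limma, unadjusted p-values under 0.05 were met by 2 muscle genes in *sma-3* and 1 in *sma-9* and by 1 neuronal gene in each mutant, and 0 genes passed with voom. The part of intestinal RNA and of stage in the changes of the C-type lectin genes was not tested. In *sma-9* the 5 intestinal markers that fell ran from −0.36 to −0.54 and the 20 members that fell from −0.35 to −2.95, of which 5 (*clec-57*, *clec-160*, *clec-56*, *clec-187* and *clec-185*) fell by no more than the markers' 0.54.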

How the data were processed

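Polyadenylated RNA of whole late L2 worms was sequenced in paired ends for 9 libraries, 3 biological replicates per genotype. Per the labels and the study's methods, the authors mapped reads to the WS245 genome and counted them per gene with STAR 2.5.1a, and normalized the counts with edgeR. The deposited values are log2 CPM, to which the authors' processing had added a prior averaging 2 reads. Strand setting, treatment of reads that fit several genes and filters on genes are not given in the sources used here, so that overlapping, antisense and near-identical genes are uncertain.

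The prior was removed, which gave whole reads for 100% of values below 200 reads in every library (tolerance 0.02 reads). Gene names, positions and exon lengths came from the deposited identifiers matched to WBcel235. A gene was tested if 3 or more of the 9 libraries reached 1 CPM. Tests used log2(CPM + 1), a scale on which fold changes of weakly expressed genes come out too small. As the design provided for values on a log scale, limma 3.58.1 (R 4.3.3; eBayes with an intensity trend) was fitted over all libraries with 1 coefficient per genotype, and p-values (two-sided) underwent Benjamini-Hochberg adjustment over all 13105 tested genes within each comparison. Genes are called changed where the adjusted p does not exceed 0.05. All adjusted p-values are from limma. Tables and plots were made with Python 3.11.15, pandas 2.3.3, numpy 2.4.6 and matplotlib 3.10.9, and the fit was tested on simulated data.

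The members, gene lists and marker lists were chosen with earlier results of these data known. Members were named where they were among the 10 largest changes of a comparison and direction, changed against wild-type in both mutants, were set apart between the mutants, were among the 6 most abundant per kilobase in wild-type, were discussed in the study, or had no read in one genotype and at least 10 in each library of another. Others were named after their values were seen. Alternatives were other filters, pseudocounts, scalings, models and thresholds, a fit to read-weighted values (voom, chosen after seeing the data), and each library left out in turn.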

Additional observations from a re-analysis of the deposited data

How the results depend on the processing

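The 100 calls of C-type lectin members were recomputed under every alternative that could be fitted, giving 2096 values, of which 0 had the opposite direction and 383 did not pass the threshold. Of the members called, 20 of 35 in *sma-3* and 19 of 32 in *sma-9* against wild-type passed wherever they were tested. Between the mutants 19 of 33 did so. The alternatives counted here were those of samples, filter, scaling and model. Members with a mean under 5 CPM, such as *clec-3*, were not tested under the filter of 5 CPM. That filter was not counted against them, so these numbers do not mean a pass under every filter. With 1 library left out, members down and up numbered 12 to 22 and 8 to 18 in *sma-3*, 12 to 24 and 7 to 11 in *sma-9*, and 10 to 18 and 10 to 23 between *sma-3* and *sma-9*. Those set apart numbered 5 to 9 (lower) and 1 to 7 (higher) in *sma-3* and 7 to 12 and 3 to 5 in *sma-9*. A stricter threshold on p or on fold change lowers such counts by construction. Leaving out a library did not always lower them. Without wild-type replicate 3, calls over all genes went from 2823 to 3291 in *sma-3*, from 901 to 1569 in *sma-9* and from 2315 to 3145 between the mutants. Limiting the test to a mean of at least 5 CPM gave 10 down and 9 up in *sma-3*, 6 up in *sma-9*, 9 lower between the mutants and 4 set apart as lower in *sma-3*. Of the 9987 genes tested under this filter, 2331 were called in *sma-3*, 671 in *sma-9* and 1862 between the mutants. An adjusted p of at most 0.01 gave 12 down and 8 up in *sma-3*, 12 and 7 in *sma-9*, 9 and 9 between the mutants, 4 and 1 set apart in *sma-3* and 3 set apart as higher in *sma-9*. Calls over all genes at this limit are not given here. Requiring a 2-fold change gave 9 and 6 in *sma-3*, 8 down in *sma-9*, 6 and 6 between the mutants, 2 and 1 set apart in *sma-3* and 5 and 3 in *sma-9*. Among all 13105 tested genes, 527 were called with such a change in *sma-3*, 204 in *sma-9* and 507 between the mutants. Fitting only the genotypes compared gave 12 down in *sma-9*, where calls over all genes went from 901 to 445. The main fit shares its estimate of spread over the 3 genotypes. The largest distance between libraries of a genotype was 24.78 in *sma-3*, 39.54 in *sma-9* and 49.03 in wild-type. The cause of the lower counts was not tested. The mean summed level without *clec-63* was 1938 CPM in *sma-3*, 1765 in *sma-9* and 2084 in wild-type. Replicates shared only a number: of 9 same-numbered pairs of libraries, 4 had deviations correlated over 0.1 (r from −0.63 to 0.40), and a replicate block gave 14 down and 13 up in *sma-3*, 15 and 11 in *sma-9* and 15 and 15 between the mutants. This block gave 2081 calls over all genes in *sma-3*, 613 in *sma-9* and 1563 between the mutants. The voom fit gave 18 and 16, 20 and 12, and 16 and 17 in the same order, and a term for library number gave 20 and 13 in *sma-9*. With voom 2779, 883 and 2326 of all genes were called, and with the library number term 811 in *sma-9*. Without a filter, 16 and 17, 18 and 9, and 13 and 20 members were called, beside 2664, 744 and 2101 of all 27362 genes with a read. The planned edgeR and DESeq2 tests were not run, because the deposited values are logarithms. The 3 replicates per genotype, and the 144 members under the filter, limit what can be seen.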
